A study of Mus musculus with 10 samples.

Results

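The T-box transcription factor genes described here are Eomes, Tbr1, Tbx1, Tbx2, Tbx3, Tbx4, Tbx5, Tbx6 and Tbx20, chosen by name from the T-box family. They are 9 of the 21938 protein-coding genes of the annotation. Their chromatin was read in F123 cells, a mouse embryonic stem cell (mESC) line with a Mus musculus castaneus and an S129/SvJae parent, from a list of H3K4me3 ChIP-seq peaks and a list of ATAC-seq peaks. The cells had no experimental treatment and were cultured in medium with the cytokine LIF and knockout serum replacement. They grew with CF1 feeder fibroblasts that had been irradiated, and the last passage was free of feeders. Each assay had 2 replicates, with 2000000 cells per ChIP-seq sample and 100000 per ATAC-seq sample, and the deposited data hold 1 list per assay that stands for both replicates. Values from these lists therefore have no spread between replicates, no test was run, and the read depth of the libraries is unknown. F123 is a single hybrid line, and whether reads from the castaneus alleles map as well to the reference as those of the other parent was not tested.

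T-box factors share a DNA-binding domain and switch cell fates in the early embryo, the heart, the limbs and the brain. H3K4me3 is a histone mark laid down around the starts of active genes, and in embryonic stem cells it also marks many silent developmental genes, most often over stretches rich in CpG dinucleotides. ATAC-seq finds accessible DNA, such as promoters and enhancers, by the insertion of Tn5 transposase. Tbx3 is a transcriptional repressor that belongs to the network of naive pluripotency, and the other 8 genes are known for their roles in differentiating lineages. Expression was not measured in these lists, so that the contrast between Tbx3 and the lineage genes rests on their known roles.

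The markers of the cell type bore on the label only in part. Of 10 embryonic stem cell markers, 8 had their start in an H3K4me3 peak and 9 in an ATAC-seq peak. Of 10 fibroblast markers, 6 had their start in an H3K4me3 peak and 6 in an ATAC-seq peak, close to the shares of all protein-coding genes, 61.1% and 62.5%, so that these counts do not separate the cell types. The median fold enrichment of the H3K4me3 peaks at these starts was 24.0 for the stem cell markers, with a range from 9.74 to 42.9, and 15.4 for the fibroblast markers, with a range from 3.39 to 20.4. Whether DNA of feeder cells contributed to the peaks was not tested.

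The sequence just before the start is given for the members with the widest (Tbx3), the second widest (Eomes) and the narrowest (Tbx4) H3K4me3 peak at the start, because these promoters differ in the density of CpG. Each run holds the 250 bases upstream of the gene start, read 5′ to 3′ along the plus strand of mm10, the strand of all 3 genes, with every CpG in capitals. The Tbx3 run (chr5:119670419-119670668) has 24 CpG and a GC content of 71.2%. The Eomes run (chr9:118477962-118478211) has 8 CpG and a GC content of 46.0%. The Tbx4 run (chr11:85886172-85886421) has 13 CpG and a GC content of 66.4%.
Tbx3: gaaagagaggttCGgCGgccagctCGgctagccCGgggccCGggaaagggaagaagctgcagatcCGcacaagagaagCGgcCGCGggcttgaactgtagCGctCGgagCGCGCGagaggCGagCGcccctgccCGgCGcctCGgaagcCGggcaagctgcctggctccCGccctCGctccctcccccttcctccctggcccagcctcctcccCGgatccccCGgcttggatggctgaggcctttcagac
Eomes: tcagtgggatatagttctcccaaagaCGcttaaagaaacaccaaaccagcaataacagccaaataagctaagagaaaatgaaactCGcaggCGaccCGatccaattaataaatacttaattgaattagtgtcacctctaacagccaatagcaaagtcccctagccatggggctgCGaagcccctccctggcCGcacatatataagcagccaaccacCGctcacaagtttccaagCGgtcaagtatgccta
Tbx4: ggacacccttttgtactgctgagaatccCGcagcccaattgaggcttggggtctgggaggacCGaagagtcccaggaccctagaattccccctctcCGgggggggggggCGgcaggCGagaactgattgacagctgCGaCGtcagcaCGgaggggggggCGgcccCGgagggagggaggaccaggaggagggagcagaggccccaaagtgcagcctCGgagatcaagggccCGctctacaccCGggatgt
The other 6 members had from 4 (Tbr1) to 25 (Tbx2) CpG in the same stretch. The order of CpG numbers was not the order of peak widths, since Tbx2 with 25 CpG had a peak of 2366 bp and Eomes with 8 CpG a peak of 5448 bp.

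H3K4me3 and open chromatin were found around every member. The gene start, taken as the 5′ end of the gene, lay inside an H3K4me3 peak in 8 of the 9 members, against 61.1% of all protein-coding genes, and inside an ATAC-seq peak in 7 of the 9, against 62.5%. All 9 had an H3K4me3 peak within 10 Kb of the start, against 72.3% of all genes. All 9 had at least 3 such peaks, against 12.2%, a threshold chosen after the values were seen. For Tbx6, 2 of its 3 peaks belong to the starts of the neighbours Ypel3 and Ppp4c, so that without peaks that hold another coding start 8 members had 3 or more. Within 10 Kb the members had a median of 5 H3K4me3 peaks (range 3 to 7) and 6 ATAC-seq peaks (range 4 to 8), while all protein-coding genes had medians of 1 and 2.

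The peaks covered long stretches around the starts. H3K4me3 peaks filled a median of 8314 bp of the 10 Kb on either side of the start over the 9 members, against 1992 bp over all genes. The values were 11908 bp at Tbx2, 11591 bp at Tbx3, 9008 bp at Tbx20, 8770 bp at Tbx1, 8314 bp at Eomes, 6811 bp at Tbx5, 6639 bp at Tbr1, 6455 bp at Tbx4 and 3627 bp at Tbx6. From 95.7% (Tbx4) to 99.8% (Tbx2 and Tbx3) of all protein-coding genes had a smaller value than each of the first 8. For Tbx6 the share was 80.2%, and its value was 1527 bp without the peaks at the Ypel3 and Ppp4c starts. The steps between neighbours in this order have no replicate spread to be set against, and the step from Tbx20 to Tbx1 and those among Tbx5, Tbr1 and Tbx4 were under 250 bp each. By the share of all genes below, the members ranked lower in the number of ATAC-seq peaks than in summed ATAC-seq width, except Tbx5 and Tbx6. The median summed ATAC-seq width was 2641 bp over the members, against 1329 bp over all genes. In ATAC-seq bases within the window, 90.3% (Tbx3) to 99.7% (Tbx1) of all genes lay below each member except Tbx5 and Tbx6. For Tbx5 and Tbx6 these shares were 51.3% and 54.3%. Tbx1 had 8 ATAC-seq peaks in its window (97.2% of all genes had fewer), Tbx4 had 7, Eomes, Tbx2 and Tbx5 had 6, Tbr1, Tbx3 and Tbx20 had 5, and Tbx6 had 4 (67.4% had fewer).

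**Figure D1:**
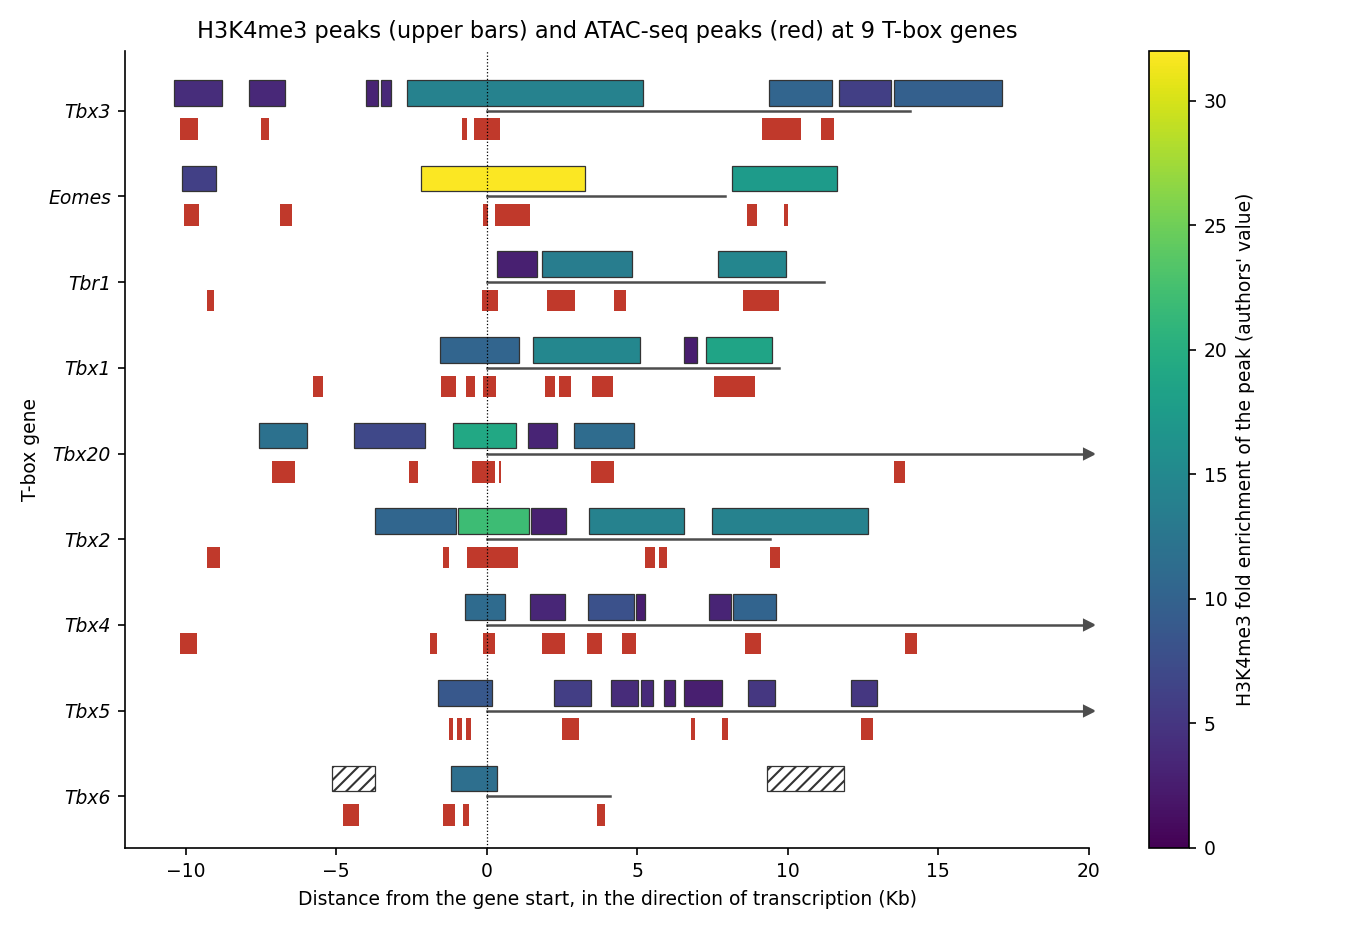
Peaks of the 9 genes by distance from the gene start in Kb, in the direction of transcription. Upper bars are H3K4me3 peaks coloured by their fold enrichment, hatched bars are H3K4me3 peaks that hold the start of another coding gene, red bars are ATAC-seq peaks, and the grey line is the gene, with an arrow where it runs past the axis. The wide peak over the Tbx3 start and the row of separate peaks at Tbx5, Tbx4 and Tbx1 stand out. The Tbx5 peak beyond the axis and the 2 such Tbx20 ATAC-seq peaks are not drawn.

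**Figure D2:**
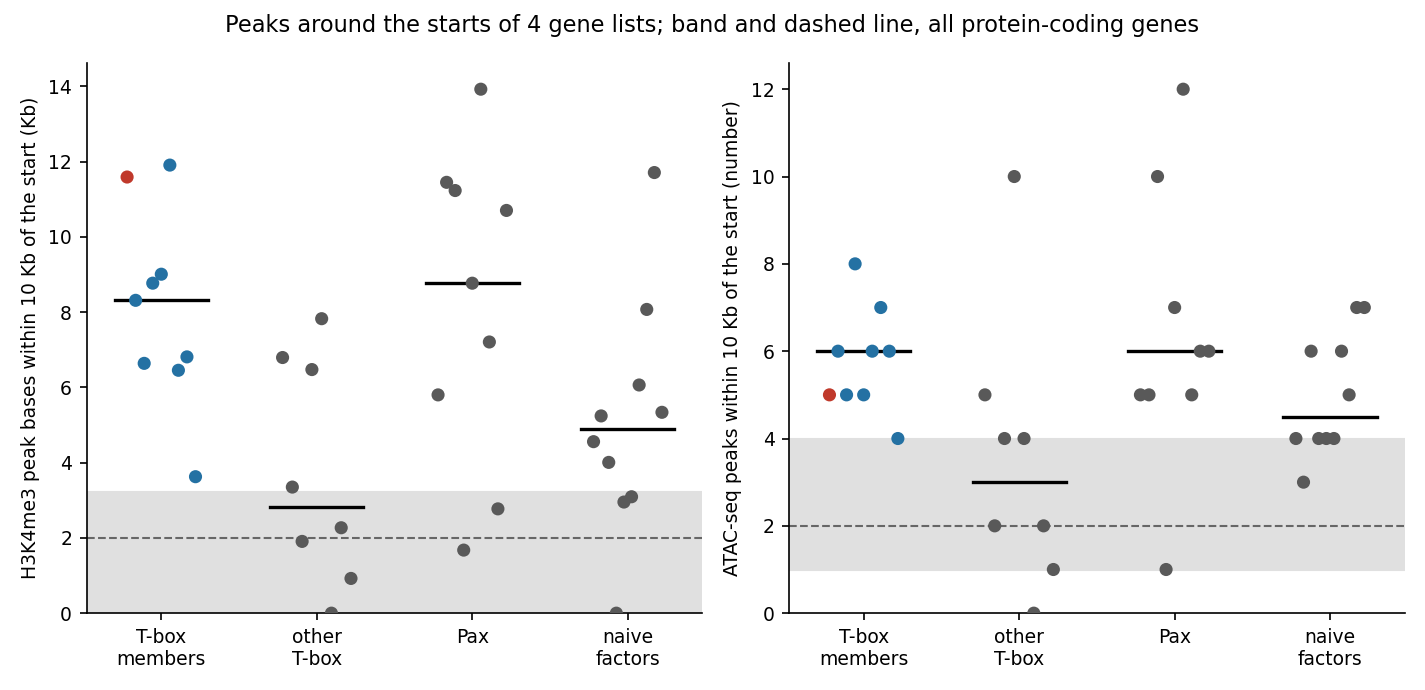
Each point is a gene. The left panel gives the H3K4me3 peak bases within 10 Kb of the start in Kb and the right panel the number of ATAC-seq peaks in the same window. Tbx3 is red and the other members are blue, bars are medians of a list, and the band and dashed line give the quartiles and the median of all protein-coding genes. In the left panel all 9 members lie above the upper quartile of all genes, 3231 bp. Tbx6 does so only with the peaks at the Ypel3 and Ppp4c starts, and had 1527 bp without them.

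Along the gene, the H3K4me3 of the members reached well past the start (profile by distance, read every 250 bp). At the start, 8 members were covered, against 61.1% of all genes. At 4500 bp downstream 7 members were covered and only 4.6% of all genes. Between 5500 and 7000 bp the number dropped to 1 or 2, against 4.0 to 4.2% of all genes. At 9500 bp downstream it was again 7, against 4.1% of all genes, although the Tbx6 value there belongs to the Ppp4c promoter. On the upstream side no more than 3 members were covered at any point between 10000 and 2000 bp before the start, where 3.9 to 5.4% of all genes were. The Pax genes, a second family of developmental factors, also had H3K4me3 past the start. At each point from 2750 to 5500 bp downstream, 4 to 6 of 9 Pax genes were covered. From 8000 to 9000 bp, 3 or 4 of the 9 Pax genes were covered, against 4 to 6 of the members. At 9500 bp 1 of the 9 Pax genes was covered. From 11250 to 12250 bp, 3 of the 9 Pax genes were covered at each point, against 3 or 4 of the members. Up to 11750 bp the Tbx6 value among these members belongs to the Ppp4c promoter. Of 10 naive pluripotency factors, 9 were covered at each point from 1500 to 2500 bp downstream and 1 at 4500 bp. ATAC-seq peaks covered 7 members at the start, 1 at 4500 bp and 3 at 9500 bp, against 62.5%, 2.9% and 4.5% of all genes.

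**Figure D3:**
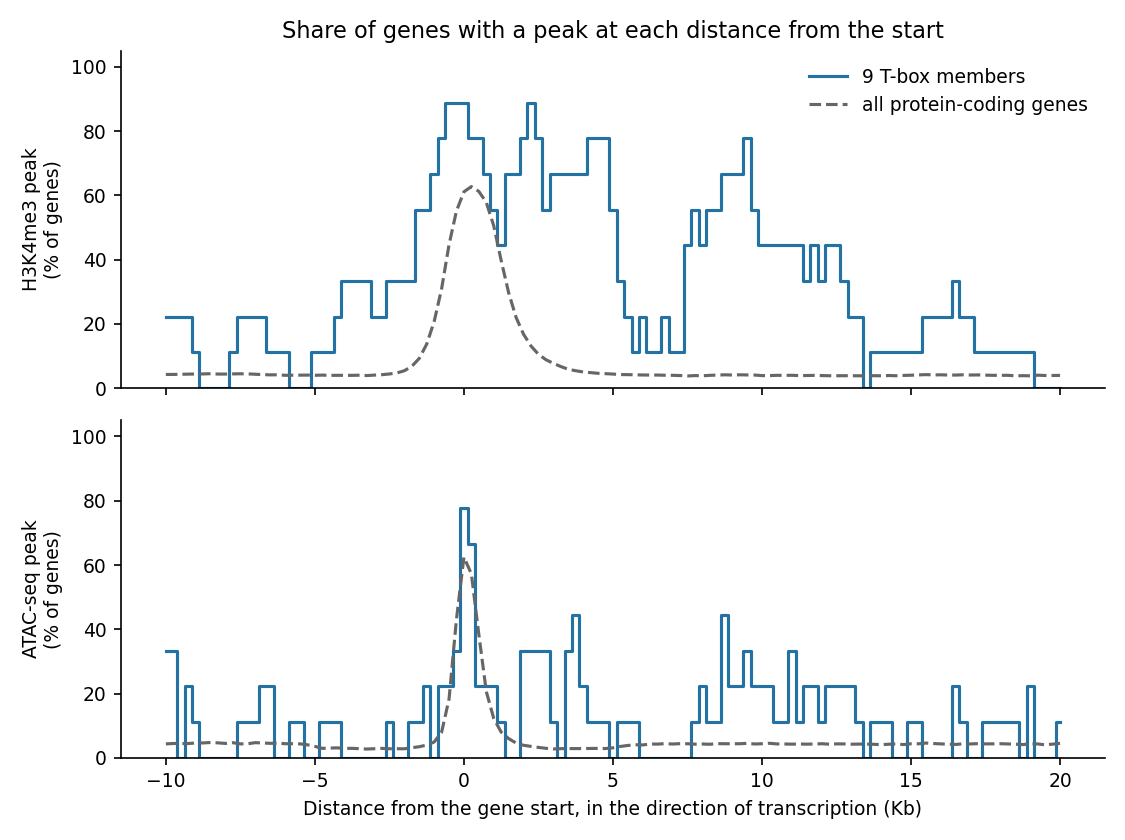
Share of genes with an H3K4me3 peak (top) or an ATAC-seq peak (bottom) at each distance from the start in Kb. The solid step line gives the 9 members, so that 1 gene is a step of 11.1%, and the dashed line all protein-coding genes. The members stay far above all protein-coding genes from 2 to 5 Kb and again from 8 to 12 Kb downstream in H3K4me3. The Pax genes are not drawn.

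Tbx3 carried the widest promoter peak of the family and a modest enrichment. Tbx3 (ENSMUSG00000018604.18, chromosome 5, 119670669 to 119684724, plus strand, mm10) lay in a peak from 119668029 to 119675874 that was 7846 bp wide and reached 2640 bp upstream and 5205 bp into the gene. Its summit lay 507 bp upstream of the start. Of the 12100 H3K4me3 peaks that hold a coding start, 99.8% were narrower, whereas only 13.2% had a lower fold enrichment than the 14.0 that the authors give for it. The −log10 q was 96.5. The 29 promoter peaks at least as wide had a median fold enrichment of 29.2, and 3.45% of these 29 (Tbx3 is among them) lay below the Tbx3 value. The start also lay in an ATAC-seq peak of 856 bp, and both ATAC-seq peaks in the promoter peak filled 13.3% of it, the smallest share among the 8 members with a promoter peak. The antisense transcript Tbx3os1 starts 696 bp inside Tbx3, in the same H3K4me3 peak, so the peak cannot be assigned to either gene alone.

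Tbx3 had 7 further H3K4me3 peaks, of lower enrichment. In the upstream window, 4 peaks of 329 to 1596 bp had fold enrichments of 3.07 to 4.07. The gene body was free of peaks from 5205 to 9374 bp after the start. Then 3 peaks followed over the last part of the gene and its end. The first covers a coding exon at its summit (119680043 to 119682138, 10.3-fold, −log10 q 110) and overlaps an ATAC-seq peak of 1293 bp, the widest at Tbx3. The second, 5.91-fold, has its summit in the 3′ UTR, and the third, 9.72-fold, spans the gene end (119684208 to 119687782). H3K4me3 peaks covered 67.9% of the gene body in all.

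Against the 8 lineage members, Tbx3 was high in H3K4me3 width, while its number of ATAC-seq peaks gave no stable direction. Its 11591 bp of H3K4me3 within 10 Kb exceeded the median of the others by 4028.5 bp, but Tbx2 reached 11908 bp. The order of Tbx2 and Tbx3 was not stable, since it reversed under most of the alternative settings given below. The 5 ATAC-seq peaks of Tbx3 were 1 fewer than the median of the others. This ATAC-seq difference was 2.5 peaks more with 20 Kb on either side of the start. With 1 gene against 8, no test of either difference was possible. In H3K4me3 width within 10 Kb the nearest members to Tbx3 were Tbx2 and then Tbx20, with 11908 and 9008 bp, and in the number of ATAC-seq peaks Tbr1 and Tbx20, with 5 each. As a member of the pluripotency network, Tbx3 was also set beside 10 naive pluripotency factors. A promoter peak was called broad at 4416 bp or more, the width reached by the widest 5% of promoter peaks. Among the members, 2 had a broad peak, Tbx3 and Eomes, and 5 of the naive factors had one, against 3.29% of all genes. The promoter peaks of Gbx2 (7709 bp, 25.3-fold), Zfp42 (5764 bp, 24.6-fold), Klf4 (5242 bp, 26.5-fold) and Klf2 (4558 bp, 38.2-fold) were stronger than that of Tbx3, and that of Prdm14 (5338 bp, 10.0-fold) was weaker. The median promoter fold enrichment of the naive factors was 25.3, and 12.8 over the 8 members.

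**Figure D4:**
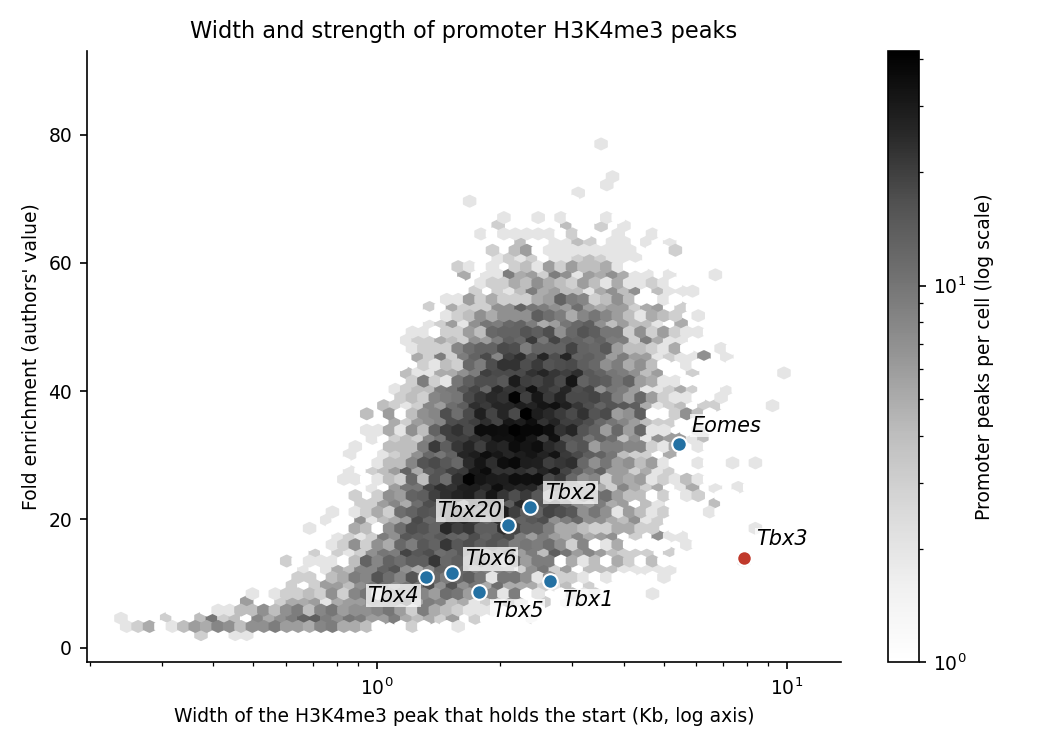
Width in Kb (log axis) against fold enrichment for the 12100 H3K4me3 peaks that hold a coding start. Grey cells are shaded by the number of peaks, the red point is Tbx3 and the blue points are the other 7 members with such a peak. Tbx3 lies at 7846 bp and 14.0-fold, at the wide edge and under most peaks of its width, and Eomes at 5448 bp and 31.8-fold.

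Among the lineage members, the Tbr1 subfamily holds Eomes and Tbr1. Eomes, which directs mesendoderm and trophoblast fates, had the strongest promoter of the family and the other broad peak (chromosome 9, 118476035 to 118481482). It spanned 5448 bp. The fold enrichment was 31.8, which 53.1% of promoter peaks did not reach, and the −log10 q was 364. Its summit lay 901 bp into the gene, in a coding exon and inside an ATAC-seq peak of 1169 bp. A second peak of 3510 bp and 17.4-fold began 212 bp past the gene end and held 6 ATAC-seq peaks, the most of any H3K4me3 peak of the members.

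Tbr1, a factor of cortical neurons, was the member whose gene start lay outside H3K4me3. Its start on chromosome 2 (61802930) was in an ATAC-seq peak of 531 bp, and the first H3K4me3 peak began 325 bp downstream with a fold enrichment of 2.78. No coding transcript of the annotation begins at the gene start. The annotated coding starts, 1523 and 3332 bp downstream, both lay in H3K4me3 peaks, of 2.78-fold and 13.5-fold. The strongest peak, 14.7-fold, had its summit in a coding exon 9028 bp after the start. Peaks covered 59.4% of the gene.

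The Tbx1 subfamily holds Tbx1 and Tbx20. Tbx1, which patterns the pharyngeal arches and the outflow tract of the heart, had its strongest H3K4me3 away from the start. The promoter peak (chromosome 16, 18589589 to 18592226) was 2638 bp wide and 10.4-fold. A peak of 2181 bp in the last part of the gene was 18.7-fold, 1.80 times the promoter value, and a peak of 3538 bp between them was 14.8-fold. The 14.8-fold peak held further annotated coding starts of Tbx1, 1863 and 3702 bp downstream of the gene start. Peaks covered 74.4% of the gene. Its 8 ATAC-seq peaks, 4415 bp in sum, were the most of the 9 members on both measures, and all but the farthest upstream one overlapped H3K4me3. The lincRNA 4930588K23Rik starts 1321 bp upstream in the promoter peak.

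Tbx20, a factor of the developing heart, had a promoter peak of 2092 bp and 19.1-fold. Beside it lay 2 peaks upstream, of 6.90-fold and 11.9-fold, and 2 in the first part of the gene, of 3.19-fold and 11.1-fold. The 11.1-fold peak held a further annotated coding start of Tbx20, 4623 bp downstream of the gene start. Only 7.0% of the 56166 bp Tbx20 body was covered, and the 3 ATAC-seq peaks beyond 10 Kb in the body were without H3K4me3. The lincRNA Gm29824 starts 2164 bp upstream, in the weaker of both upstream peaks.

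Tbx2, Tbx4 and Tbx5 share a subfamily with Tbx3. Tbx2, a repressor in the heart and limbs, was nearly filled with H3K4me3, with peaks over 81.2% of the gene, the highest share of the 9. Its promoter peak was 2366 bp wide and 21.9-fold, and a single ATAC-seq peak of 1699 bp, the widest of all members, filled 71.8% of it. A peak of 5192 bp and 14.2-fold covered the gene end (chromosome 11, 85840036 to 85845227) and was wider than the promoter peak. Gaps of 53 and 57 bp separated the promoter peak from its neighbours on either side. With peaks under 500 bp apart joined, a setting chosen after seeing the data, Tbx2 and Tbx1 also had a broad promoter, which gave 4 broad members in place of 2. The gene 2610027K06Rik starts 328 bp upstream in the same peak.

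Tbx4, which acts in the hindlimb and the lung, had the narrowest promoter peak, 1318 bp and 11.1-fold. A further 5 peaks, of 2.58-fold to 10.2-fold, lay in the first 10 Kb of the gene, and the last, 8183 to 9598 bp after the start, came close to the promoter in strength at 0.92 of its fold. Among these peaks, that of 7.89-fold held a further annotated coding start of Tbx4, 3641 bp downstream of the gene start. Tbx5, which acts in the forelimb and the heart, had the weakest promoter peak, 1777 bp and 8.69-fold (−log10 q 46.0), of which 165 bp lay inside the gene. Tbx5 also had the largest number of H3K4me3 peaks, 7 within 10 Kb and 9 in the gene body, each of 8.69-fold or less. The rank within 10 Kb was not stable. Tbx5 had 3 peaks with 5 Kb on either side, against 4 at Tbx2, Tbx4 and Tbx20. It had 8 with 20 Kb, against 9 at Tbx3, and 4 with peaks under 500 bp apart joined, against 5 at Tbx3. Under the other alternatives Tbx5 stayed first. Its start was not in an ATAC-seq peak, and the nearest, of 172 bp, was centred 615 bp upstream. The lincRNA Gm43050 starts 748 bp upstream in the promoter peak, the stretch in which all 3 ATAC-seq peaks before the start lie.

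Tbx6, a factor of the paraxial mesoderm, had the sparsest H3K4me3. Its promoter peak (chromosome 7, 126780282 to 126781808) was 1527 bp wide and 11.6-fold, and no other peak of its own was found within 10 Kb. The peaks at the start of Ypel3 (45.9-fold) and of Ppp4c (52.1-fold) in the same window were each over 3 times as strong, in fold, as the Tbx6 peak. No ATAC-seq peak held the Tbx6 start.

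The promoter peaks of the members were weak as a group for peaks at coding starts. The median fold enrichment of the 8 promoter peaks was 12.8, against 30.6 over all 12100 promoter peaks, and 7 of the 8 lay below that median. Their median width, 2229 bp, was close to the 2149 bp of all promoter peaks. Other T-box genes and the Pax genes gave the same measures for comparison, both lists having been set by family name. Of the 8 other T-box genes, 5 had their start in an H3K4me3 peak, with fold enrichments from 12.0 (Tbx15) to 23.7 (Tbx18), and 3 had at least 3 peaks within 10 Kb, namely T, the brachyury gene of the mesoderm, Tbx15 and Tbx18. Their median H3K4me3 width within 10 Kb was 2810.5 bp. Of the 9 Pax genes, 7 had a start in H3K4me3 and 6 had at least 3 peaks, with a median width of 8769 bp and a median promoter fold of 14.6. The Pax values ran beside those of the members, with 13925 bp at Pax6, the eye and forebrain gene, above all 9 members.

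H3K4me3 at the end of the gene was seen in 5 members, Tbx3, Eomes, Tbr1, Tbx1 and Tbx2. These had a peak that holds no coding start within 2 Kb of the gene end, against 9.46% of the 18695 genes of at least 4 Kb. This measure was chosen after the peaks were seen, so the count is a description. The fold enrichment of the strongest such peak was 18.7 at Tbx1, 17.4 at Eomes, 14.7 at Tbr1, 14.2 at Tbx2 and 9.72 at Tbx3. The 5 genes are 7921 to 14056 bp long, while Tbx4, Tbx5 and Tbx20 are 29676 to 56166 bp long and Tbx6 4078 bp. The same measure held for 1 of 8 other T-box genes, 1 of 9 Pax genes and 3 of 8 naive factors that are long enough.

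The windows and bodies of the 9 genes held 46 H3K4me3 and 58 ATAC-seq peaks in all. The H3K4me3 peaks had a median width of 1529.5 bp and a median fold of 8.29, against 1135 bp and 8.93 over the list of 33487. By the place of the summit, 15 of the 46 lay in introns, 13 upstream of the gene, 9 in coding exons, 4 downstream, 3 in the 5′ UTR, 1 in the 3′ UTR and 1 in a part of the gene outside its coding transcripts. The ATAC-seq peaks had a median width of 394.5 bp, against 261 bp over the list of 179109, and 23 of the 58 lay upstream and 16 in introns.

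ATAC-seq peaks near these genes mostly overlapped H3K4me3, whereas many of the H3K4me3 peaks had no ATAC-seq peak. Of the 52 ATAC-seq peaks within 10 Kb of a member start, 45 (86.5%, 95% Wilson confidence interval 74.7 to 93.3%) overlapped H3K4me3 by 1 bp or more, against 49.7% of the 48662 ATAC-seq peaks within 10 Kb of any coding start. The member windows held more H3K4me3, a median of 8314 bp against 1992 bp over all genes, and overlap rises with that width. Whether the overlap exceeded what this width gives was not tested. Without the peaks at the neighbouring coding starts, 31 of the 44 H3K4me3 peaks (70.5%, interval 55.8 to 81.8%) shared a base with an ATAC-seq peak, against 87.1% of the whole list. Away from the gene start the share was 23 of 36 (63.9%, interval 47.6 to 77.5%), against 76.8% of the H3K4me3 peaks within 10 Kb of any coding start that hold none. The 36 include peaks at further annotated coding starts of Tbr1, Tbx1, Tbx4 and Tbx20. They also include gene-body peaks of Tbx3 and Tbx5 over 10 Kb from the gene start, so the sets are not fully alike. The intervals cover counting error only and take peaks as independent, which neighbours at a gene are not. The 13 peaks without ATAC-seq had a median fold of 3.25 (2.53 to 5.91) and a median width of 531 bp, and the 31 with ATAC-seq a median fold of 10.4 and a median width of 2092 bp. Over the whole list the same split gave medians of 3.33 and 479 bp without, and 12.4 and 1335 bp with ATAC-seq.

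The 9 genes include 2 tandem pairs, and their intervals differed. Tbx3 and Tbx5 lie 147943 bp apart on chromosome 5 with no coding gene between them. That interval held 11 H3K4me3 peaks, of which 9 lay over 10 Kb from both genes, and 24 ATAC-seq peaks, of which 11 had no H3K4me3. The strongest of the intergenic H3K4me3 peaks beyond the Tbx3 end, 10.0-fold and 2112 bp wide, began 132344 bp from the Tbx3 start and held 3 ATAC-seq peaks. It exceeded the Tbx5 promoter peak in both fold and width. None of the 9 peaks held the start of an annotated gene. Tbx2 and Tbx4 lie 44473 bp apart on chromosome 11, with the coding gene Gm11444 between them, and the interval held 3 H3K4me3 and 13 ATAC-seq peaks. The former were the Tbx2 end peak, a peak of 428 bp and 7.52-fold, and the Tbx4 promoter peak. Per 10 Kb this came to 0.744 H3K4me3 and 1.62 ATAC-seq peaks between Tbx3 and Tbx5, and 0.675 and 2.92 between Tbx2 and Tbx4, against 0.123 and 0.656 over the genome. The interval counts include peaks that reach in from the genes at either side.

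**Figure D5:**
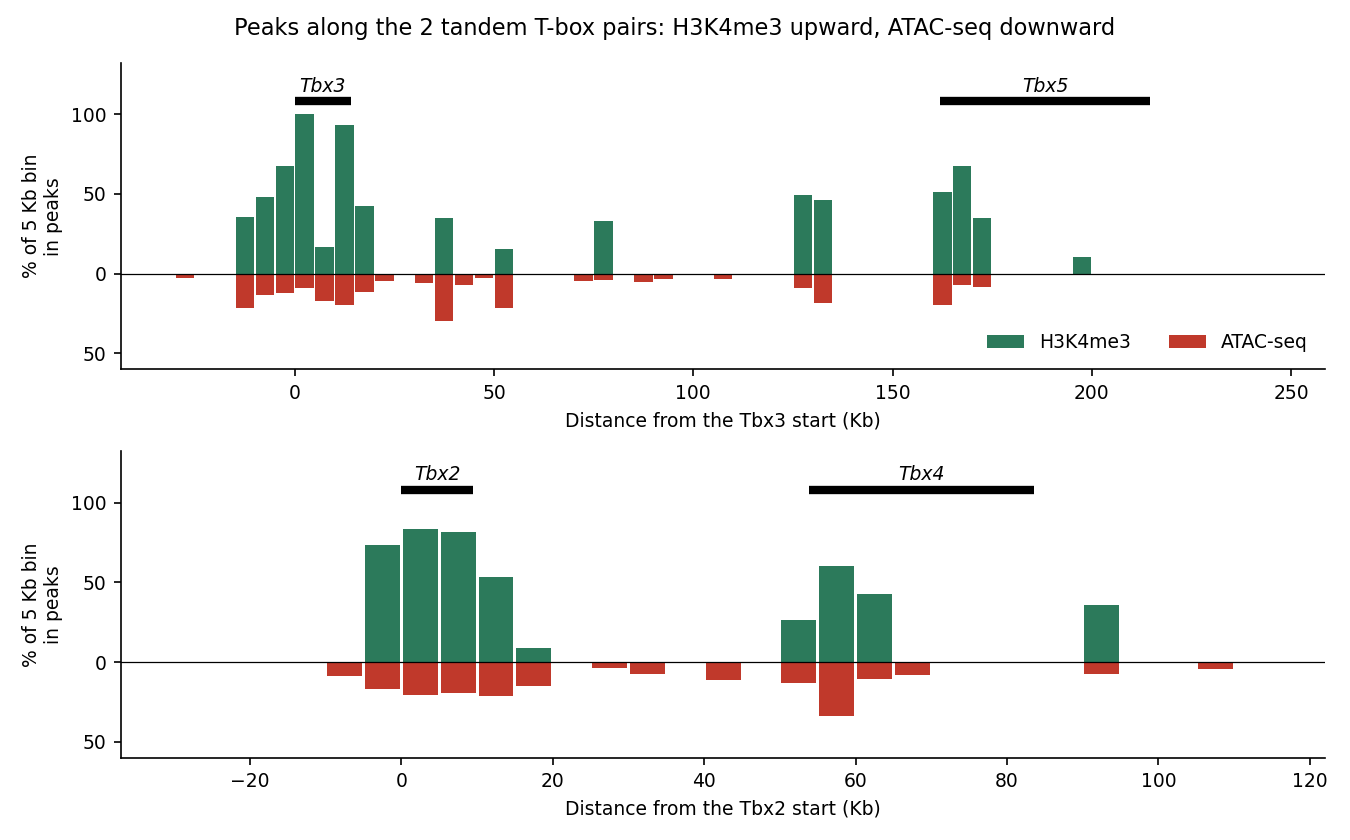
Share of each 5 Kb bin covered by H3K4me3 peaks (green, upward) and ATAC-seq peaks (red, downward) along the 2 tandem pairs, by distance from the start of the first gene in Kb. Black bars are the genes. Between Tbx3 and Tbx5 the H3K4me3 lies in scattered blocks, the largest around 125 to 135 Kb, while between Tbx2 and Tbx4 the H3K4me3 lies near the genes and ATAC-seq peaks continue between them.

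The H3K4me3 of the members was also compared with the base composition of the windows. In tiles of 200 bp, those with a GC content of at least 55% and an observed over expected CpG ratio of at least 0.65 were called CpG-dense. The members had 3 (Tbx6) to 16 (Tbx1 and Tbx2) such tiles per window, with a median of 8, against 2 over all genes. The 3 tiles of Tbx6 were centred 4700 to 4300 bp upstream, in the H3K4me3 peak at the Ypel3 start. All 81 CpG-dense tiles of the 9 windows lay in H3K4me3 peaks, against 93.3% of such tiles over all genes. Since 93.3% is already high, a wide gap could appear only in the other tiles. Of these, 34.8% lay in H3K4me3 at the members (285 of 819), against 8.66% over all genes. The other tiles make up most of each window, so this share largely restates the H3K4me3 widths given above. Per gene this share ran from 15.5% at Tbx6 to 52.2% at Tbx3 and 53.6% at Tbx2. It was 15.1% for the other T-box genes, 35.8% for the Pax genes and 22.8% for the naive factors. The tiles were chosen after the widths were seen, and neighbouring tiles share peaks, so that no test was made.

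Sequence motifs were counted in the central 301 bp of each ATAC-seq peak, flanks included where the peak is narrower, on both strands. The core of the T-box site, AGGTGTGA, was found in 1 of the 58 member peaks (1.72%), at Tbx6, against 1.64% of all ATAC-seq peaks. The octamer of the pluripotency factor Pou5f1, ATGCAAAT, was found in 2 (3.45%), against 3.56%, and the Esrrb site TCAAGGTCA in 0, against 0.854%. The GC box GGGCGGGG was found in 8 (13.8%, against 6.72%) and the E-box CACGTG, which reads the same on both strands, in 7 (12.1%, against 5.47%). These are few peaks, both motifs hold a CpG, and the backgrounds are unlike. The member windows had a median of 8 CpG-dense tiles, against 2 over all genes. Of the 58 member peaks 81.0% overlapped H3K4me3, against 21.1% of all ATAC-seq peaks. Whether base composition accounts for the higher shares was not tested. In the 250 bp upstream of the gene start the GC box was found at 1 of the 9 members, against 19.7% of all coding genes, and the E-box at 0, against 6.53%. A match gives these letters and no evidence of binding. The octamer in an intron of Tbx4, in an ATAC-seq peak 4721 bp after the start that overlaps H3K4me3, is shown with 10 bases on either side and the octamer in capitals (plus strand of mm10, chr11:85891246-85891273).
Tbx4 octamer: gcaaaagctgATGCAAATaagggcagcc
The GC box in the ATAC-seq peak at the Tbx3 start is shown likewise, with 10 bases on either side (chr5:119670765-119670792, minus strand).
Tbx3 GC box: tcagaggggaGGGCGGGGagccaccagg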

How the data were processed

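H3K4me3 ChIP-seq and ATAC-seq peak lists of F123 cells were used, 1 list per assay for 2 replicates. For H3K4me3 the authors ran the ENCODE pipeline for histone ChIP-seq with its defaults, with the aligner and threshold not given in the sources used here. The deposited columns give positions, a fold enrichment (a ratio over background), −log10 values of p and q, a display score that was not used, and the summit. For ATAC-seq the authors aligned reads with Bowtie 1.1.2, shifted them by 4 bp to the Tn5 insertion, called peaks by MACS2 2.1.1.20160309 and retained, with bedtools 2.27.1, the pooled peaks seen in both replicates (SAMtools was also used). That list holds positions only. Depth is unknown for both, and peak calls set the resolution of every width and number.

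Genes were taken from GENCODE M21 on mm10, and no peak ran past an mm10 chromosome end. A peak counted when it shared at least 1 bp with the 10 Kb on either side of the gene start or with the gene body, and widths were cut to the window. Percentages of genes or peaks below a value are descriptions over all 21938 coding genes or 12100 promoter peaks. Number and width were checked on 2000 simulated windows against bedtools 2.31.1 and were equal in all. Tables were handled with pandas 2.3.3 and numpy 2.4.6 under Python 3.11.15, intervals were computed in scipy 1.17.1, and plots were drawn in matplotlib 3.10.9.

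All 9 members are named. Sequences were shown for Tbx3 and for the members with the widest and narrowest promoter peak. Since the widest is Tbx3 itself, Eomes, the next, was added. The octamer and GC box sequences were chosen after the matches were seen. The members and gene lists were chosen with earlier results of these data known. Alternatives were 5 or 20 Kb on either side of the start, H3K4me3 peaks with −log10 q of at least 5, the widest 50% of ATAC-seq peaks, peak midpoints, all coding transcript starts, a peak within 1 Kb of the start, the widest 10% as broad, and windows without peaks at other coding starts. Joining peaks under 500 bp apart and 1 Kb from the gene end were added after seeing the data. The PLAC-seq and input samples were not used here.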

Additional observations from a re-analysis of the deposited data

How the results depend on the processing

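The number of members with a start in H3K4me3 (8) became 9 with all coding transcript starts or a peak within 1 Kb, since Tbr1 then counted, and was 8 otherwise. The number with a gene-end peak was 5 under its 3 alternatives. The broad promoters numbered 2 under the alternatives except with peaks under 500 bp apart joined, which gave 4. At least 3 H3K4me3 peaks were found at 7 to 9 members, and at 5 with 5 Kb on either side, a smaller window by construction. The median H3K4me3 width of 8314 bp was 5448 bp with 5 Kb on either side, 9166 bp with 20 Kb and 8770 bp with peak midpoints or all transcript starts. The excess of Tbx3 over the other members, 4028.5 bp, kept its direction, with 3465.5 bp (5 Kb), 11060 bp (20 Kb), 3634.5 bp (−log10 q of at least 5), 3558.5 bp (midpoints), 3323 bp (all transcript starts) and 3740 bp (joined peaks). Tbx3 exceeded Tbx2 with 5 Kb (8364 against 7839 bp), 20 Kb (20147 against 15012 bp) and −log10 q of at least 5 (11197 against 10739 bp). It also did so with midpoints (11349 against 9392 bp) and all transcript starts (11940 against 11908 bp). Tbx2 stayed above Tbx3 with joined peaks (12018 against 11696 bp) and without peaks at other coding starts. In ATAC-seq peaks Tbx3 minus the median of the others, -1 as reported, was -2 with 5 Kb, 0 with the widest 50% of the peaks and reversed to 2.5 with 20 Kb, so no direction can be given for it. The cause was not tested where the window or the number of peaks did not set it. The median of 6 ATAC-seq peaks was 4 to 8. Of 180 values for single members, 125 stayed within the tolerance, which was 1.5 times for numbers of peaks and none for widths, and 55 moved beyond it. No paired analysis was possible because each list stands for both replicates, and leaving out a replicate was not run for the same reason. Read depth is unknown, so that peaks under the threshold of the callers are not seen.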
